A study of Mus musculus with 12 samples.

Results

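The cell-cycle brakes of mouse fibroblasts and the p53 network around them were followed in 3T3 cells exposed to cancer-cell vesicles. The 10 genes were chosen by symbol and comprised 6 inhibitors of cyclin-dependent kinases (Cdkn1a, Cdkn1b, Cdkn1c, Cdkn2a, Cdkn2b and Cdkn2c), 3 other p53 target genes (Mdm2, Ccng1 and Trp53inp1) and cyclin D1 (Ccnd1). All 10 were found among the 32544 rows of the count table, and all 10 were among the 14279 genes that passed the filter on low counts. Bulk poly(A) RNA was sequenced from 4 groups of 3 libraries of 3T3 cells, an established mouse fibroblast line. One group was untreated, and the others had received extracellular vesicles (EVs, membrane particles shed by cells) from the human breast cancer line MDA-MB-468 for 24 h. The donor cells were controls (shCon), had CRIPTO knocked down (shCr) or overexpressed CRIPTO (CrOE), a cell-surface protein. The 3T3 subline, the number of donor clones and whether the 3 libraries of a group came from separate cultures or EV preparations are not given in the sources used here. The p-values therefore measure the spread between these libraries, which may be technical.

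Cells pass from G1 into DNA replication when D-type cyclins with CDK4 or CDK6, and then cyclin E with CDK2, phosphorylate the retinoblastoma protein and release E2F factors. The INK4 inhibitors (Cdkn2a, Cdkn2b, Cdkn2c) bind CDK4 and CDK6, whereas the Cip/Kip inhibitors (Cdkn1a, Cdkn1b, Cdkn1c) bind a wider set of cyclin-CDK complexes. The transcription factor p53 induces Cdkn1a after DNA damage and other stress, together with Mdm2, whose protein in turn marks p53 for degradation. In fibroblasts, cyclin D1 is a sensor of growth factors and adhesion, and Cdkn2a is known for its rise as cultures age.

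Library totals were 25960054 to 37774020 estimated counts, lowest in untreated cells. Tdgf1, the mouse gene of CRIPTO, had 0 to 3 counts in every library; CRIPTO in the donor cells was not analysed here. The CrOE columns of the table were identified by elimination. The CrOE EV libraries stood apart, correlating with libraries of other groups at 0.900 to 0.921 (Pearson's r of log2 CPM across genes, which are not independent replicates), against 0.986 to 0.994 between replicates. Of the shCr EV libraries, replicate 1 stood apart on the third principal component (42.0, against -5.05 and 1.47 for its replicates). Mitochondrially encoded genes held 0.622% of its counts, against 1.44% and 1.70%. Untreated replicate 1 (0.495%, against 1.64% and 0.991%) and CrOE EV replicate 2 (0.693%, against 1.32% and 1.44%) also had the lowest such share of their groups and the highest value on that component (8.81 and 10.05). The 10 fibroblast markers were all expressed outside the CrOE EV libraries. Their summed level, in CPM (counts scaled to library size by TMM), was 16109 to 17158 in untreated libraries, 17721 to 17888 in shCon EV libraries, 12809 to 14212 with shCr EVs and 4812 to 4995 with CrOE EVs. Each of these 10 was called lower with CrOE EVs than without EVs, as were 37.0% of all genes. Among them Lum averaged 3.82 CPM in untreated cells and 0.0097 CPM with CrOE EVs. The 7 epithelial markers each averaged below 1 CPM over the 12 libraries, with Epcam at 0 counts in every one. Their sum was 2.44 to 3.39 CPM in CrOE EV libraries against at most 1.69 elsewhere. Of the 7, Cldn4 averaged 1.15 CPM with CrOE EVs and 0 CPM in untreated cells (log2 fold change 8.13, adjusted p = 3.4e-06, edgeR). Krt8, Krt18 and Esrp1 also had higher means with CrOE EVs than in untreated cells. Krt19 (0.942 CPM untreated, 0.621 with CrOE EVs) and Cdh1 (0.137 and 0.0870) had lower ones. The 5 endothelial markers each averaged below 1 CPM over the 12 libraries. Of 6 macrophage markers, Ptprc averaged at most 0.130 CPM and Adgre1 at most 0.0224 CPM in a group. The list's sum was 129 to 140 CPM in untreated libraries and 123 to 134 with shCon EVs. It was 173 to 246 CPM with shCr EVs and 32.3 to 38.2 with CrOE EVs. Cd14 and Lyz2 made up most of it outside the CrOE EV libraries, and Cd14 in them. Lyz2 averaged 46.9, 78.0, 146 and 1.25 CPM in untreated, shCon EV, shCr EV and CrOE EV cells. In the same order Cd68 averaged 5.64, 5.60, 5.56 and 3.05 CPM, and Csf1r 2.43, 2.11, 2.20 and 1.00. Of 4 adipocyte markers only Fabp4 averaged above 1 CPM, and the list's sum fell from 21.4 to 26.9 CPM in untreated libraries to 1.81 to 2.13 in CrOE EV libraries. The part of these shifts in the results below was not tested. In bulk RNA, fewer cells of a type and less RNA per cell cannot be told apart.

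Cyclin D1 fell after every kind of EV, and most members apart from Mdm2 fell after CrOE EVs. After shCon EVs, 4 members were called higher than in untreated cells and 1 lower; over all genes tested, 18.0% were called higher and 20.2% lower, 38.1% in all. After shCr EVs, 6 members were called higher (18.4% of all genes) and 1 lower (18.8%), where 37.3% of all genes were called. After CrOE EVs, 1 was called higher (36.7%) and 8 lower (37.0%), where 73.7% of all genes were called. A call is an adjusted p under 0.05 (Benjamini-Hochberg, over all genes tested) from the quasi-likelihood F test of edgeR. The libraries of the groups compared did not overlap for 9 members with shCon EVs (54.2% of all genes), 8 with shCr EVs (41.9%) and 9 with CrOE EVs (77.7%). The members' median log2 fold change was 0.12 with shCon EVs, 0.28 with shCr EVs and -0.79 with CrOE EVs, where the median over all genes was 0.0069, 0.020 and 0.0078. The 3 comparisons share the untreated libraries. By their labels, the 4 groups hold no vehicle or mock-EV control. Effects of the EVs therefore cannot be told apart from those of handling or medium in these 3 comparisons.

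**Figure D1:**
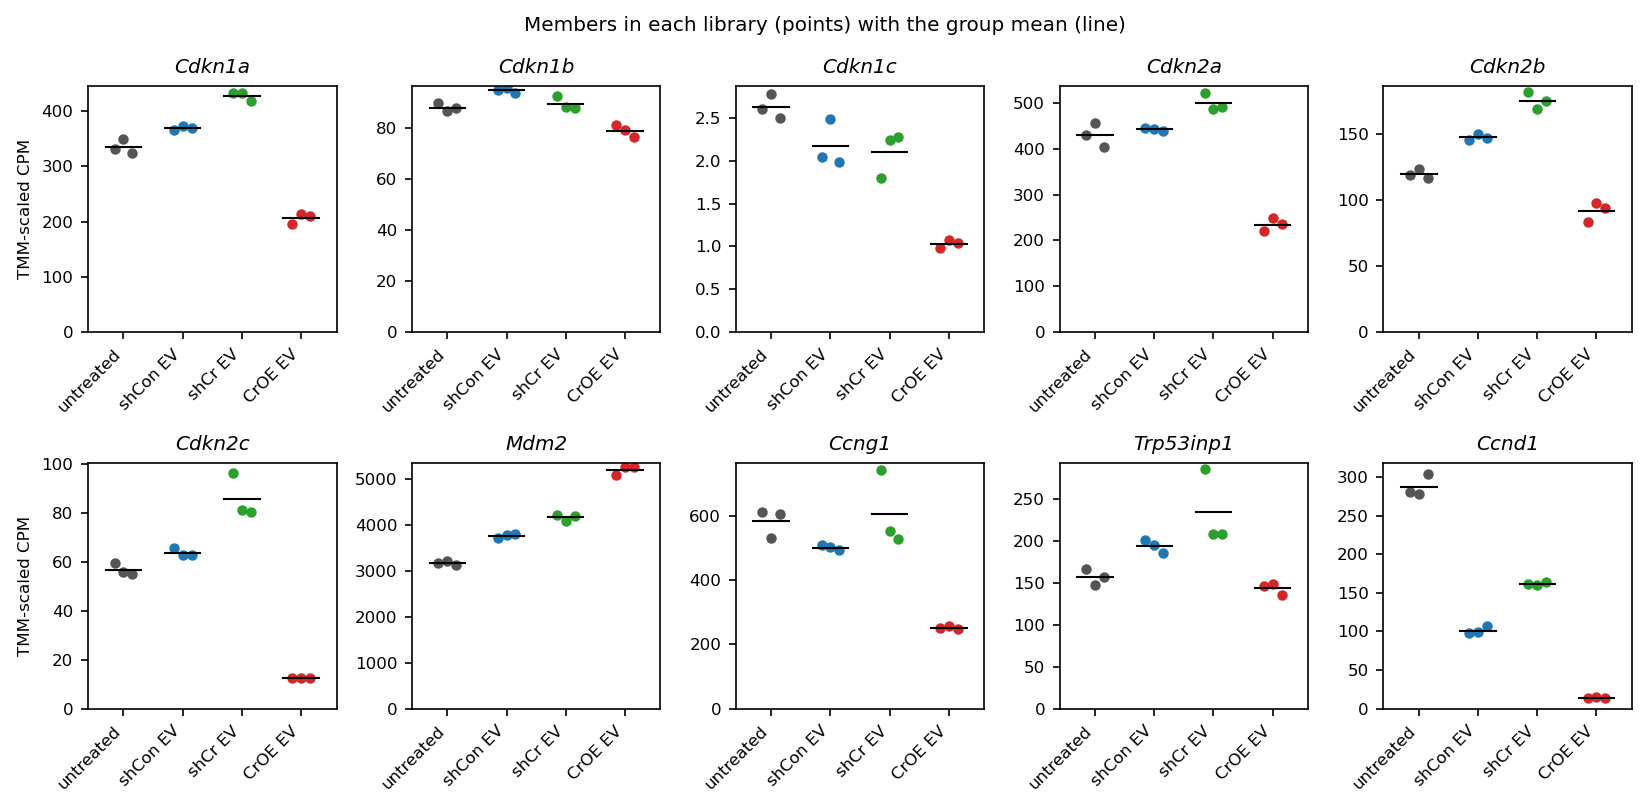
Level of each member (vertical axis, TMM-scaled CPM, starting at 0) in the 3 libraries (points) of each group, with the group mean as a line. Ccnd1 runs from 278 to 305 CPM in untreated cells down to 13.1 to 15.4 CPM after CrOE EVs, while Mdm2 is highest after CrOE EVs.

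Ccnd1 encodes the D-type cyclin that activates CDK4 and CDK6 when growth factors are present. Its untreated libraries held 281, 278 and 305 CPM, and its shCon EV libraries 97.7, 98.97 and 107. The shCr EV libraries held 162, 161 and 164 CPM, and the CrOE EV libraries 13.1, 15.4 and 13.6. The libraries of no group overlapped those of another, in the order untreated, shCr EV, shCon EV and CrOE EV from high to low. Its log2 fold change against untreated cells was -1.51 (SE 0.063, adjusted p = 5.6e-09, edgeR) after shCon EVs and -0.83 (SE 0.062, adjusted p = 4.6e-07) after shCr EVs. With CrOE EVs it came to -4.35 (SE 0.072, adjusted p = 8.4e-14, edgeR), a 20.5-fold lower level. These sizes exceeded those of 96.8%, 89.5% and 97.6% of all tested genes in the respective comparison. For CrOE EVs against untreated cells, Cdkn2c exceeded 89.96% of genes in size, Cdkn1c 78.9%, Ccng1 76.2% and Cdkn2a 64.8%. Mdm2 (56.6%) and Cdkn1a (55.8%) lay near the middle of all genes, and Cdkn2b (34.2%), Cdkn1b (14.3%) and Trp53inp1 (12.2%) below it. Between EV groups, Ccnd1 was 1.60-fold higher with shCr than with shCon EVs (log2 fold change 0.68, SE 0.062, adjusted p = 3.1e-05, edgeR). It was 7.19-fold lower with CrOE than with shCon EVs and 11.5-fold lower than with shCr EVs. Every one of these 6 differences stayed a call in every alternative run, including each library left out in turn. In the GENCODE M21 annotation, 23.4% of the exon length of Ccnd1 overlaps a gene on the opposite strand; the library kit keeps strand, but whether the counting used it is not given in the sources used here.

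The genes whose level across the 12 libraries was most like that of Ccnd1, among 9766 genes ranked by Pearson's r of log2 CPM, were Thbd (r = 0.999), Plpp3 (0.999) and Prkaca (0.998). Thbd, the thrombomodulin gene, averaged 63.3 CPM in untreated cells and 30.6, 43.1 and 8.58 CPM with shCon, shCr and CrOE EVs. Plpp3, a lipid phosphate phosphatase gene, averaged 233, 90.3, 134 and 16.5 CPM in the same order. Prkaca, which encodes a catalytic subunit of protein kinase A, averaged 194, 151, 165 and 91.7 CPM. All 3 shared the order untreated, shCr EV, shCon EV and CrOE EV, a likeness that follows largely from their choice by r. These r values describe 12 libraries in which the CrOE EV group lies far from the rest.

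Cdkn1a encodes p21, the Cip/Kip inhibitor through which p53 halts the cycle. RefSeq's promoter table (build GRCm38.p6) held windows for 7 of the 10 members (not Cdkn1c, Trp53inp1 or Ccnd1), with 2 start sites each for Cdkn1a, Cdkn2a and Cdkn2c. The counts are per gene, so transcripts from different starts are summed. The 250 bases before each start were searched on both strands for GGGCGG, the core bound by Sp1 factors, and for the p53 half-site, the decamer that is paired in p53 response elements. A window from each of 3 members held a p53 half-site (7.13% of 32851 RefSeq windows did), and 5 held GGGCGG (32.7% of windows); the 2 motifs do not overlap in them. The 2 windows of Cdkn1a, 2790 bases apart, are shown because they differ in these letters; in every sequence shown, capitals mark a p53 half-site or GGGCGG.
Cdkn1a upstream start, chr17:29090729-29090978, plus strand: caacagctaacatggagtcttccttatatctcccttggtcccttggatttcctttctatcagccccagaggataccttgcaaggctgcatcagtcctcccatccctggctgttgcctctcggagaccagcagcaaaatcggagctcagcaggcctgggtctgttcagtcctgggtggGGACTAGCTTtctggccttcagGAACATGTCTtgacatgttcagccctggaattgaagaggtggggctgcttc
Cdkn1a downstream start, chr17:29093519-29093768, plus strand: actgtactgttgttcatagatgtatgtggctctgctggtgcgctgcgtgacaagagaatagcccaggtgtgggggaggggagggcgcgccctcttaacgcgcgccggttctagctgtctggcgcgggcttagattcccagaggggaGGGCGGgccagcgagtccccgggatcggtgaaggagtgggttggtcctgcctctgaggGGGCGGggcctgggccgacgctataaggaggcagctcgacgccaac
In the upstream window the half-sites are GGACTAGCTT from position -73 and GAACATGTCT from position -51, where -1 is the base before the start site. The downstream window has 2 copies of GGGCGG and no p53 half-site. A match of letters is a description and was not tested as a binding site.

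The untreated libraries held 331, 349 and 325 CPM of Cdkn1a, and the shCon EV libraries 365, 373 and 369. The shCr EV libraries held 433, 434 and 418 CPM, and the CrOE EV libraries 195, 214 and 210. No group overlapped another: Cdkn1a was highest after shCr EVs and lowest after CrOE EVs. The rise after shCr EVs had a log2 fold change of 0.35 (SE 0.049, adjusted p = 0.000103, edgeR), and the fall after CrOE EVs of -0.70 (SE 0.049, adjusted p = 3.4e-08). The rise after shCon EVs was small (log2 fold change 0.14, SE 0.049, adjusted p = 0.0416, edgeR) and was no call when any of 5 of the 6 libraries compared was left out (adjusted p up to 0.151). With CrOE EVs Cdkn1a was 1.79-fold lower than with shCon EVs and 2.07-fold lower than with shCr EVs. Over 7.68% of its exon length it overlaps a gene on the opposite strand. The genes most like Cdkn1a over the 12 libraries were Hpcal1 (r = 0.997), Gpr176 (0.997) and Gusb (0.995). As for Ccnd1, r describes libraries among which the CrOE EV group lies far from the rest. Hpcal1, which encodes a neuronal calcium sensor protein, averaged 35.9, 39.2, 51.2 and 16.7 CPM in untreated, shCon EV, shCr EV and CrOE EV cells. Gpr176 encodes an orphan receptor and Gusb the lysosomal enzyme beta-glucuronidase. Both also had their highest mean after shCr EVs and their lowest after CrOE EVs, which follows largely from their choice by r.

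Cdkn1b encodes p27, a Cip/Kip inhibitor controlled largely by protein turnover, and it moved little. Its untreated libraries held 89.96, 86.8 and 87.9 CPM, its shCon EV libraries 95.2, 95.7 and 93.8, its shCr EV libraries 92.6, 88.3 and 88.0, and its CrOE EV libraries 81.5, 79.4 and 76.5. The CrOE EV libraries lay below all others, and the untreated and shCr EV libraries overlapped. Only the comparisons with CrOE EVs were calls among the 6: its log2 fold change was -0.16 against untreated cells (SE 0.045, adjusted p = 0.00698, edgeR), -0.26 against shCon EVs and -0.18 against shCr EVs. Its log2 fold changes after shCon EVs (0.11, adjusted p = 0.0848) and shCr EVs (0.023, adjusted p = 0.729) were no calls by edgeR.

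Cdkn1c, which encodes p57 and is an imprinted gene expressed from the maternal copy, was the least abundant member, with 31 to 86 counts a library. Its CPM values were 2.60, 2.78 and 2.50 in untreated libraries, 2.04, 2.49 and 1.98 in shCon EV libraries, 1.80, 2.24 and 2.28 in shCr EV libraries and 0.983, 1.08 and 1.04 in CrOE EV libraries. The CrOE EV libraries lay below all others, and the shCon EV and shCr EV libraries overlapped. Cdkn1c fell after CrOE EVs (log2 fold change -1.34, SE 0.16, adjusted p = 5.0e-06, edgeR). After shCon EVs (-0.27, SE 0.15, adjusted p = 0.167, edgeR) and shCr EVs (-0.31, SE 0.15, adjusted p = 0.116) it was no call, although the libraries of each group lay below the untreated ones. Exons of Cdkn1c overlap a gene on the opposite strand over 30.7% of their length.

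The Cdkn2a locus makes 2 unrelated proteins from different first exons: p16INK4a, a CDK4 and CDK6 inhibitor, and p19ARF, which inhibits MDM2. The windows before its 2 starts, 12427 bases apart, are shown because the gene-level counts hold both products together, and the upstream start is that of p19ARF.
Cdkn2a upstream start, chr4:89294620-89294869, minus strand: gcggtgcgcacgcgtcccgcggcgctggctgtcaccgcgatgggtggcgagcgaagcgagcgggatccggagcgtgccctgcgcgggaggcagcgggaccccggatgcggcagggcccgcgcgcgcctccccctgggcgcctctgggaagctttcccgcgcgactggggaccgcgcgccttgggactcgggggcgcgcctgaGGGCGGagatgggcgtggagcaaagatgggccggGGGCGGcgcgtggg
Cdkn2a downstream start, chr4:89282193-89282442, minus strand: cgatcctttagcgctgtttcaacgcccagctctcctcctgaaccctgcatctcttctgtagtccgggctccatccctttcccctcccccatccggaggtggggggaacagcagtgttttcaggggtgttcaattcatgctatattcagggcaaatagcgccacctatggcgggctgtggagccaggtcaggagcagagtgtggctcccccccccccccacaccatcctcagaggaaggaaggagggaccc
The upstream window has 40 CpG dinucleotides and 2 copies of GGGCGG, and the downstream window 7 CpG dinucleotides and neither motif; the median over all RefSeq windows is 6 CpG dinucleotides. How far each start contributed to the counts was not analysed here.

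Untreated libraries held 431, 457 and 405 CPM of Cdkn2a, and shCon EV libraries 445, 443 and 439. With shCr EVs the libraries held 522, 486 and 491 CPM, and with CrOE EVs 220, 249 and 235. The NIH 3T3 subline is known to lack this locus; Cdkn2a was expressed in all 12 libraries here. The CrOE EV libraries were the lowest, and the untreated and shCon EV libraries overlapped. The fall after CrOE EVs was 1.84-fold (log2 fold change -0.88, SE 0.060, adjusted p = 2.4e-08, edgeR). With shCr EVs it rose by a log2 fold change of 0.21 (SE 0.060, adjusted p = 0.0130, edgeR), a call that was lost without untreated replicate 1 (adjusted p = 0.0552) or 3 (adjusted p = 0.0753), or in a fit of only these 2 groups (adjusted p = 0.0664). After shCon EVs it was 0.038 (adjusted p = 0.655, edgeR).

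Cdkn2b, the neighbour of Cdkn2a on chromosome 4, encodes p15, an INK4 inhibitor induced by TGF-beta. It stood at 119, 123 and 117 CPM in the untreated libraries and 146, 150.4 and 147 in those with shCon EVs. With shCr EVs it stood at 182, 169 and 175 CPM, and with CrOE EVs at 83.3, 98.2 and 93.9. No group overlapped another. It rose after shCon EVs (log2 fold change 0.30, SE 0.060, adjusted p = 0.00154, edgeR) and after shCr EVs (0.55, SE 0.060, adjusted p = 1.3e-05), and fell after CrOE EVs (-0.38, SE 0.060, adjusted p = 7.5e-05).

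Cdkn2c encodes p18, a further INK4 inhibitor, and had the steepest fall of the 6 inhibitors. Untreated libraries held 59.5, 55.8 and 55.1 CPM of it, and shCon EV libraries 65.6, 62.7 and 62.8. The shCr EV libraries held 96.4, 81.1 and 80.2 CPM, and the CrOE EV libraries 12.6, 12.7 and 12.3. No group overlapped another, and replicate 1 was the highest of the shCr EV libraries. Against untreated cells Cdkn2c was 4.54-fold lower with CrOE EVs (log2 fold change -2.18, SE 0.075, adjusted p = 2.7e-11, edgeR), 5.09-fold lower than with shCon EVs and 6.86-fold lower than with shCr EVs. After shCr EVs it rose 1.51-fold (log2 fold change 0.60, SE 0.068, adjusted p = 2.1e-05, edgeR). Without shCr EV replicate 1 that log2 fold change was 0.50 (adjusted p = 2.2e-06, edgeR). After shCon EVs the log2 fold change of 0.17 was no call (adjusted p = 0.0763, edgeR); it was one in a fit of only these 2 groups (adjusted p = 0.0210).

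Mdm2 encodes the ubiquitin ligase that holds p53 low, and it was the one member that rose after all 3 kinds of EV and was highest after CrOE EVs. Its window is shown because it held 1 p53 half-site, from position -186, and 2 copies of GGGCGG, one of them on the other strand; the p53-responsive promoter known for this gene lies further down, in the first intron, and was not analysed here.
Mdm2, chr10:117710759-117711008, minus strand: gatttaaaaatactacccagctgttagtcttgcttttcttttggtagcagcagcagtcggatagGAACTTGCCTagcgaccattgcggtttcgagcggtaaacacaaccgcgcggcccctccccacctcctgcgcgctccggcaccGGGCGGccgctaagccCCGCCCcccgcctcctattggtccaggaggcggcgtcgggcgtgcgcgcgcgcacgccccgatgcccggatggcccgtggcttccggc
Untreated libraries held 3165, 3217 and 3138 CPM of Mdm2, and shCon EV libraries 3731, 3781 and 3809.9. The shCr EV libraries held 4221, 4100.03 and 4194 CPM, and the CrOE EV libraries 5103, 5261 and 5262. No group overlapped another, and the order was untreated, shCon EV, shCr EV and CrOE EV from low to high. The log2 fold changes against untreated cells with shCon, shCr and CrOE EVs were 0.25 (SE 0.039, adjusted p = 0.000287, edgeR), 0.39 (SE 0.039, adjusted p = 6.0e-06) and 0.71 (SE 0.039, adjusted p = 2.7e-09). The step from shCon to shCr EVs was a call (log2 fold change 0.14, adjusted p = 0.0395, edgeR) that was lost when any of 5 of the 6 libraries was left out (adjusted p up to 0.173).

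Per kilobase of exon, Mdm2 stood at 624 CPM per kb in untreated cells, the 49th highest of 13835 genes with a length and 119 times the median gene (5.26 CPM per kb). On the same scale in untreated cells, Cdkn2a followed at 368 CPM per kb, then Ccng1 at 166, Cdkn1a at 94.3, Cdkn2b at 86.1, Ccnd1 at 61.1, Trp53inp1 at 24.3, Cdkn2c at 21.2, Cdkn1b at 19.4 and Cdkn1c at 1.29. After CrOE EVs Mdm2 reached 1025 CPM per kb, whereas Ccnd1 was at 2.99, below Cdkn2c at 4.66. Mdm2 was first isolated from amplified DNA of a transformed 3T3 line, so its neighbours were looked at, a choice made after its level was seen. Of the 20 nearest tested protein-coding genes on chromosome 10 (10 on either side, in RefSeq order), 8 lay above the 95th percentile of tested genes with a length (68.1 CPM per kb).

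These 8 were Rab3ip (72.5 CPM per kb), Cct2 (1720.4), Frs2 (129), Yeats4 (527), Slc35e3 (108), Nup107 (152), Rap1b (100.3) and Mdm1 (188). The 4 genes directly on one side of Mdm2, from Slc35e3 to Mdm1, were all among them, while Cpm, directly on the other side, was at 0.765 CPM per kb. Cct2, a subunit of the cytosolic chaperonin, ranked 5th of the tested genes with a length. After CrOE EVs, 7 of the 20 neighbours were called higher and 7 lower than in untreated cells, near the 36.7% and 37.0% of all genes. With shCon EVs 7 were called higher and 2 lower (18.0% and 20.2% of all genes), and with shCr EVs 4 and 4 (18.4% and 18.8%). Nup107, a nuclear pore gene, had log2 fold changes of -0.92 with shCon EVs and -1.11 with shCr EVs (both calls), where Mdm2 rose. DNA copy number was not analysed here.

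**Figure D2:**
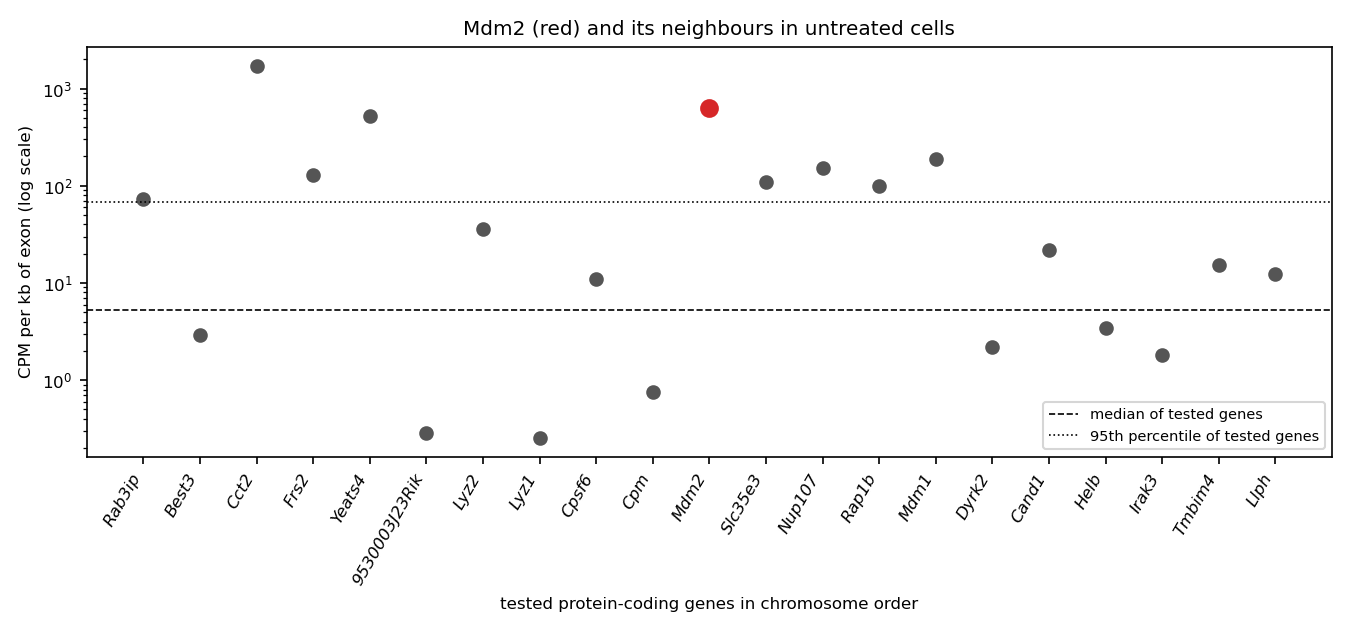
CPM per kb of exon in untreated cells (vertical axis, log scale; mean of 3 libraries) of Mdm2 (red) and the 10 nearest tested protein-coding genes on either side in chromosome order (horizontal axis). Dashed and dotted lines mark the median (5.26) and the 95th percentile (68.1) of tested genes with a length. Mdm2 and 8 neighbours lie above the dotted line.

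Ccng1 encodes cyclin G1, a p53 target that recruits a phosphatase to MDM2. Its window is shown because it is the third with a p53 half-site, from position -185.
Ccng1, chr11:40755287-40755536, minus strand: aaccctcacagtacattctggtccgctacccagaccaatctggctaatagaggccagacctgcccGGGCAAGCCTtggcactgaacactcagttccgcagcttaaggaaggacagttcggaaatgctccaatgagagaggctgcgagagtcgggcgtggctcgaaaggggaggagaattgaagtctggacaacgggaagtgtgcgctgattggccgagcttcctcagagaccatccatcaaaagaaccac
Ccng1 stood at 613, 530.3 and 605 CPM in the untreated libraries and 509, 502 and 492 in the shCon EV libraries. The shCr EV libraries had 741, 552 and 527 CPM, and the CrOE EV libraries 249.98, 256 and 246. The CrOE EV libraries lay far below the rest, and replicate 1 lay apart from the other shCr EV libraries. Ccng1 fell 2.33-fold after CrOE EVs (log2 fold change -1.22, SE 0.11, adjusted p = 2.8e-07, edgeR). Its log2 fold change was -0.22 after shCon EVs (SE 0.10, adjusted p = 0.122, edgeR), which was a call in a fit of only these 2 groups (adjusted p = 0.0117). After shCr EVs it was 0.058 (adjusted p = 0.702, edgeR), and -0.12 without shCr EV replicate 1 (adjusted p = 0.114).

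Trp53inp1 encodes a stress-induced p53 partner that also acts in autophagy. It stood at 167, 147 and 157 CPM in the untreated libraries and 200.4, 195 and 185 in the shCon EV libraries. The shCr EV libraries had 286, 208 and 209 CPM, and the CrOE EV libraries 146, 148 and 136. The CrOE EV and untreated libraries overlapped, and shCr EV replicate 1 again lay above its replicates. After CrOE EVs it was the one member with no call against untreated cells (log2 fold change -0.13, SE 0.10, adjusted p = 0.268, edgeR); a fit of only these 2 groups called it lower (adjusted p = 0.0467). It rose after shCr EVs (log2 fold change 0.58, SE 0.10, adjusted p = 0.000828, edgeR), with 0.40 left without shCr EV replicate 1 (adjusted p = 7.6e-05). With shCon EVs its log2 fold change of 0.30 (adjusted p = 0.0379, edgeR) stopped being a call when any 1 of the 6 libraries was left out (adjusted p up to 0.103).

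Vesicles from donor cells that differ by label in CRIPTO were then set against each other. By their labels, the 4 groups hold no separate control for the overexpression. Other differences between CrOE donor cells and the rest therefore cannot be told apart from CRIPTO. With shCr against shCon EVs, 5 members were called higher and 0 lower, where 5.22% of all genes were called higher and 3.51% lower, 8.73% in all. The libraries did not overlap for 9 members (28.0% of all genes). The 5 called members were Ccnd1 (log2 fold change 0.68), Cdkn2c (0.43, SE 0.068, adjusted p = 0.00176, edgeR), Cdkn2b (0.25), Cdkn1a (0.21) and Mdm2 (0.14). The calls of Ccnd1 and Cdkn2c held in every alternative run. The calls of Cdkn1a, Cdkn2b and Mdm2 were each lost without any 1 of the shCon EV libraries, which left 2 members called. In a fit of only these 2 groups 3 members were called. The other 5 members were no calls, with log2 fold changes from -0.083 (Cdkn1b) to 0.28 (Ccng1). Those of Ccng1 and Trp53inp1 moved most with single shCr EV libraries. Without replicate 1, Ccng1 was at 0.10 (adjusted p = 0.305, edgeR) and Trp53inp1, at 0.27 with all libraries, was at 0.0997 (adjusted p = 0.317). Without replicate 3, Ccng1 was at 0.37 and became a call (adjusted p = 0.0464, edgeR), and Trp53inp1 was at 0.35 (adjusted p = 0.0681).

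With CrOE EVs, 9 members were called lower and 1 higher than with shCon EVs (36.1% and 36.5% of all genes), and likewise than with shCr EVs (37.0% and 36.9%). The member called higher was Mdm2, with log2 fold changes of 0.46 and 0.32. The members' median log2 fold change was -0.88 against shCon EVs and -1.04 against shCr EVs. The 20 calls of these 2 comparisons, which share the CrOE EV libraries, held under every alternative run. The libraries of the groups did not overlap for any of the 10 members in either comparison (80.5% and 74.0% of all genes). With 72.6% and 73.9% of all genes called, a call here sets the members little apart from other genes.

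**Figure D3:**
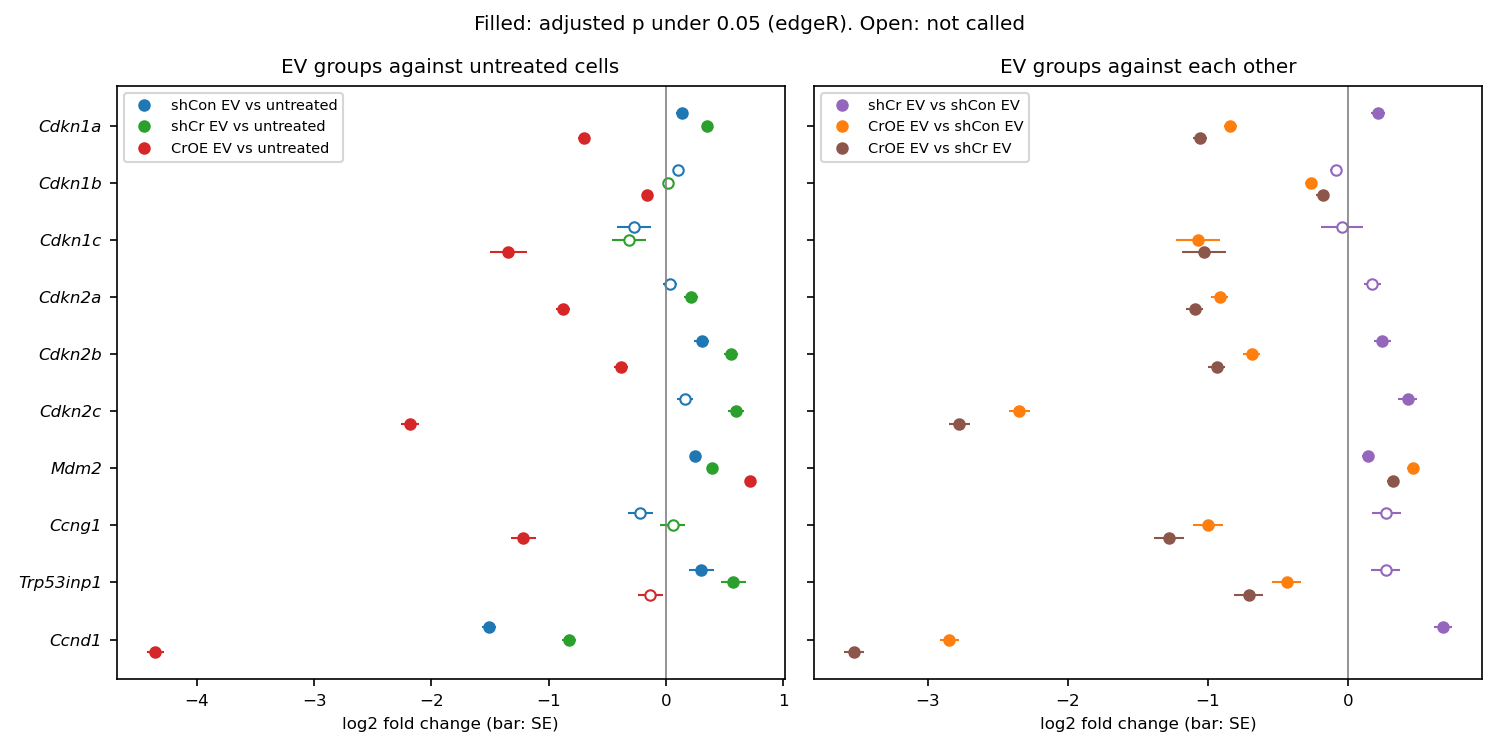
Log2 fold change (horizontal axis) with its SE (bar) of each member, for the EV groups against untreated cells (left) and against each other (right); filled points have an adjusted p under 0.05 by edgeR. Ccnd1 reaches -4.35 after CrOE EVs, and only Mdm2 lies to the right of 0 in all comparisons with CrOE EVs.

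The partners and substrates of these proteins were described by 20 genes of the G1 cyclins, CDKs and RB-E2F axis. Against untreated cells, 2 of the 20 were called higher and 12 lower with shCon EVs (18.0% and 20.2% of all genes), and 2 and 13 with shCr EVs (18.4% and 18.8%). With CrOE EVs 9 were called higher and 9 lower, where 36.7% and 37.0% of all genes were. The other D-type cyclin genes also fell. Ccnd2 averaged 665 ± 7.67 CPM (SD, n = 3) in untreated cells and 387 ± 10.2, 462 ± 48.1 and 317 ± 15.2 CPM with shCon, shCr and CrOE EVs. Ccnd3 averaged 99.2 ± 2.52, 71.5 ± 1.18, 84.2 ± 2.70 and 32.3 ± 0.495 CPM in the same order. Both fell in each EV group (edgeR, log2 fold changes after CrOE EVs -1.07 and -1.62). Both were also called higher with shCr than with shCon EVs, with log2 fold changes of 0.26 (adjusted p = 0.0351, edgeR) and 0.23 (adjusted p = 0.00643), as was Ccnd1.

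Cdk4, a catalytic partner of these cyclins, fell slightly with shCon EVs (log2 fold change -0.22) and shCr EVs (-0.15) and rose slightly with CrOE EVs (0.15, adjusted p = 0.0207, edgeR). Cdk6 fell after CrOE EVs (-1.09) and was no call after shCon EVs (-0.10) or shCr EVs (0.074). Cdkn2d, the INK4 gene of p19INK4d, averaged 11.01 ± 0.0458 CPM (SD, n = 3) in untreated cells and fell in each EV group, with log2 fold changes of -0.79, -0.54 and -1.30 after shCon, shCr and CrOE EVs. After CrOE EVs the largest rises of this list were those of Cdc25a, a CDK-activating phosphatase (log2 fold change 1.05), and Fbxw7, a ligase subunit that targets cyclin E (0.72). The largest falls were those of Rbl2, the p130 pocket protein of resting cells (-1.81), and Ccnd3.

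Of 30 other p53 target genes, 8 were called higher and 5 lower with shCon EVs (18.0% and 20.2% of all genes), and 14 and 3 with shCr EVs (18.4% and 18.8%). With CrOE EVs 8 of the 30 were called higher and 12 lower (36.7% and 37.0% of all genes). The counts called lower with shCon and CrOE EVs lie near the shares of all genes. Those called higher lie somewhat above the share with shCon EVs and somewhat below it with CrOE EVs. The widest gap was that of the genes called higher with shCr EVs, well above the share. Those called lower with shCr EVs lie below it. These gaps were not tested. The list's median log2 fold changes with shCon, shCr and CrOE EVs were 0.040, 0.17 and -0.099. After CrOE EVs Gadd45a, a growth arrest and DNA damage gene, rose most (log2 fold change 2.91, SE 0.067, adjusted p = 9.0e-13, edgeR), from 26.6 ± 2.11 to 200.4 ± 11.7 CPM (SD, n = 3). It also rose after shCon EVs (91.9 ± 0.449 CPM) and shCr EVs (76.0 ± 2.42 CPM). Plk2, a polo-like kinase gene, rose from 98.9 ± 7.06 to 436 ± 24.7 CPM after CrOE EVs (log2 fold change 2.14). With CrOE EVs Dcxr, a xylulose reductase gene, fell from 62.4 ± 2.18 to 11.6 ± 0.976 CPM (-2.43), and Sesn1, a sestrin that restrains mTORC1, from 46.5 ± 5.57 to 9.74 ± 0.424 CPM (-2.26). Several genes of this list, such as Gadd45a, Sesn2, Gdf15 and Ddit4, also answer to other stress factors.

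Trp53, the gene of p53 itself, averaged 196 ± 2.65 CPM (SD, n = 3) in untreated cells and 184 ± 9.39, 159.9 ± 19.4 and 366 ± 16.0 CPM with shCon, shCr and CrOE EVs. It rose after CrOE EVs (log2 fold change 0.90, SE 0.077, adjusted p = 2.4e-07, edgeR), fell after shCr EVs (-0.29, adjusted p = 0.00940) and was no call after shCon EVs (-0.093, adjusted p = 0.374). Mdm4, the partner of MDM2 that masks p53, rose after shCon EVs (log2 fold change 0.48) and CrOE EVs (0.48) and was no call after shCr EVs (0.22, adjusted p = 0.0853, edgeR). Of 13 genes of p53 and its regulators, 10 were called higher and 0 lower with CrOE EVs, where 36.7% and 37.0% of all genes were. With shCon EVs 2 were called higher and 3 lower, near the 18.0% and 20.2% of all genes, and with shCr EVs 0 and 4 (18.4% and 18.8%). The other large rise of this list after CrOE EVs was that of Atr, a DNA damage kinase (1.11), and the smallest called rises were those of Rchy1, a p53 ubiquitin ligase (0.21), and Ep300, an acetyltransferase (0.33).

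Genes of replication and division gave the setting for these changes. All 12 proliferation markers were called lower with shCon EVs (median log2 fold change -1.74; 20.2% of all genes were called lower) and with shCr EVs (-2.07; 18.8%). With CrOE EVs 10 were called lower and 2 higher (median -1.04), where 37.0% and 36.7% of all genes were. The 2 higher were Mcm2, a helicase subunit loaded in G1 (log2 fold change 1.29), and Pcna, the replication clamp (0.37), and the largest falls were those of the cyclin genes Ccnb2 (-2.48) and Ccna2 (-2.22). Against shCon EVs, 8 of the 12 were called higher and 2 lower with CrOE EVs (36.5% and 36.1% of all genes), the comparison in which 9 of 10 members were called lower. These 9 include Ccnd1, which is no inhibitor of the cycle, and a link between the 2 lists was not tested.

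**Figure D4:**
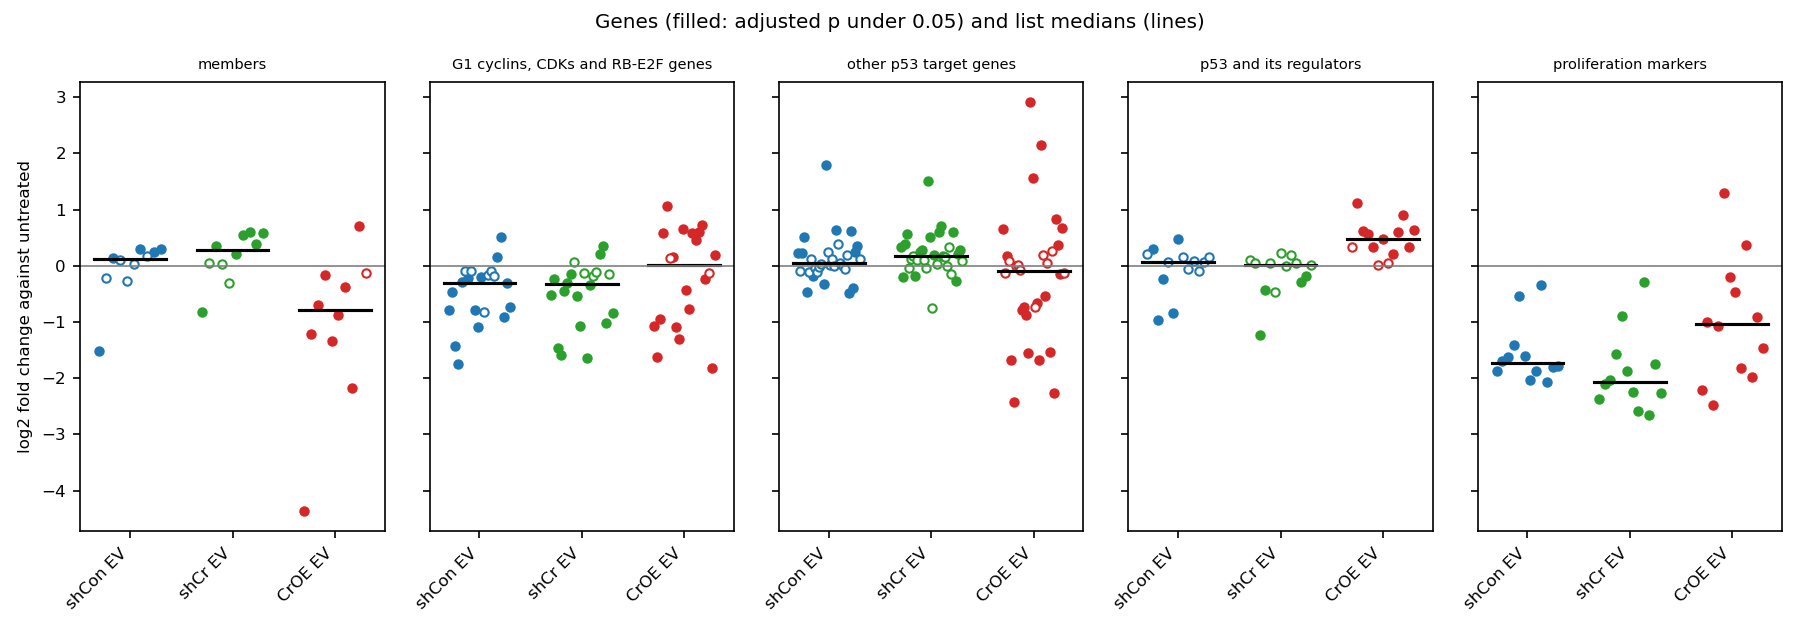
Log2 fold change against untreated cells (vertical axis) of single genes (points; filled, adjusted p under 0.05 by edgeR) and list medians (lines) after shCon, shCr and CrOE EVs, for the members and the 4 other lists. The members' median goes from 0.12 and 0.28 to -0.79, while that of p53 and its regulators reaches 0.48 after CrOE EVs.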

How the data were processed

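The deposited table gave an estimated count for each gene symbol and library, with no scaling between libraries by the authors; 39.8% of its values were not whole numbers. Per the submitters' processing notes, featureCounts and the build mm39 were used; the aligner, the annotation and the use of strand are not given in the sources used here. The 3 columns that carry only the name Cripto were taken as CrOE by elimination, since shCr has columns of its own.

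Counts were rounded, filtered by filterByExpr and scaled by TMM. The test was that of glmQLFit and glmQLFTest (edgeR 4.0.16 in R 4.3.3) on all 12 libraries in 1 model with a mean per group and 8 residual degrees of freedom, with Benjamini-Hochberg adjustment over 14279 genes. The common dispersion of 0.00793 is a coefficient of variation of 8.90%. The SE was derived from the F statistic. The code was tested on simulated data. DESeq2 1.42.0, other scalings and filters, the replicate number as a block, a fit of the 2 groups compared and each library left out in turn were alternatives; scaling by library totals was added after seeing the data. Exon lengths, exon overlaps and the gene order came from GENCODE M21 and RefSeq (GRCm38.p6), by symbol; 96.9% of tested genes had a length. Rfwd2 stands for Cop1 in the regulator list.

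The members and lists were chosen with earlier results of these data known. All members are named; from each other list, the 2 highest and 2 lowest log2 fold changes after CrOE EVs among calls (mean log2 CPM 1 or more), plus Trp53, Mdm4, Ccnd2, Ccnd3, Cdk4, Cdk6 and Cdkn2d. Genes most alike had the highest r among genes with a mean log2 CPM of 3 or more (prior count 2).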

Additional observations from a re-analysis of the deposited data

How the results depend on the processing

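Of 46 calls among the 60 tests of members, 40 were calls in the same direction under every alternative run. This held for all 29 calls in the 3 comparisons with CrOE EVs. With no filter on low counts, 3 members were called for shCr against shCon EVs in place of 5, and with only these 2 groups fitted also 3 (641 genes called in all, against 1247). With each library left out in turn, 3 to 4 members were called for shCon EVs against untreated cells in place of 5, 6 to 7 for shCr EVs in place of 7, and 2 to 5 for shCr against shCon EVs. Leaving out a library also turned the sign of 4 values that were no calls: the log2 fold change of Ccng1 after shCr EVs ranged from -0.12 to 0.15, that of Cdkn1b after shCr EVs from -0.0051 to 0.035, that of Cdkn2a after shCon EVs from -0.0082 to 0.086, and that of Cdkn1c for shCr against shCon EVs from -0.11 to 0.072. The cause of these changes was not tested. Nothing in the labels says that equal replicate numbers mark a shared culture, and libraries with the same number deviated together no more than others (median correlation of deviations 0.0050 against 0.0035; 4 of 12 libraries correlated best with their own number). With the replicate number as a block, 6, 7 and 9 members were called against untreated cells for shCon, shCr and CrOE EVs, and Cdkn2c after shCon EVs became a call (adjusted p = 0.0366, edgeR). Median-of-ratios factors, DESeq2, library totals and a minimum of 10 counts in every library changed no count of members called. Depth limits Cdkn1c most, at 31 to 86 counts a library.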
